A study of Mus musculus with 12 samples.

Results

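The collagen genes of cultured mouse astrocytes are described here. The members are the 44 protein-coding genes named Col, a number, the letter a and a number in either of the deposited tables, of 27587 genes listed in all. They fall into 11 fibrillar, 8 basement membrane and 25 other collagens. All 44 were listed in the overexpression table and 42 in the knockdown table. Primary astrocytes came from the cortices of wild-type C57BL/6J mice at postnatal day 3. They were grown with fetal bovine serum, purified, subcultured, transduced with virus and then kept for 1 week in a serum-free medium with N2 and B27 supplements, after which total RNA was sequenced with a stranded kit. In the overexpression experiment the virus carried GADD45G, a small stress-response protein, or GFP, a fluorescent protein used as the control. In the knockdown experiment, cells labelled shGADD45G, in which an shRNA was directed at the endogenous Gadd45g, were compared with control cells labelled shLuc. There were 3 libraries in each of the 4 groups. The labels give neither the type of virus, its promoter nor the number of animals or cultures behind the libraries, so the spread that p-values measure may be no more than technical.

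Collagens are secreted or membrane-bound proteins whose chains wind in threes into a triple helix. Fibrillar collagens assemble into the tension-bearing fibrils of connective tissue, type IV collagens form the sheet-like network of basement membranes, and the remaining families decorate fibrils, build beaded filaments or hexagonal lattices, or span the cell membrane. In the brain the parenchyma holds little fibrillar collagen. Basement membrane collagens lie where astrocyte endfeet meet blood vessels and at the pial surface, and fibrillar collagens mark the meninges, large vessels and scars.

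The count totals of the 12 libraries ranged from 15626655 to 20756461 reads assigned to genes. Gadd45g itself stood at 150, 144 and 139 CPM (counts scaled to library size within an experiment) in libraries labelled GADD45G, against 121, 133 and 134 CPM in GFP. That is a log2 fold change of 0.15 ± 0.05 (SE, edgeR adjusted p = 0.0298). Such p-values come from edgeR's quasi-likelihood test with Benjamini-Hochberg adjustment over all genes tested, and a gene passed, or was called, when its value was under 0.05. The sources used here do not say whether transcripts of the construct are counted in the mouse gene's row. In libraries labelled shGADD45G it stood at 67.2, 147 and 122 CPM, against 140, 151 and 129 CPM in shLuc, and the difference did not pass the test (log2 fold change -0.32 ± 0.22, SE, edgeR adjusted p = 0.408). The library labelled shGADD45G 2 lay within the shLuc range. Groups are therefore named by their labels throughout, and every direction is one between libraries so labelled.

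GADD45G library 3 stood apart. Its 9 lung epithelium and blood markers summed to 1723 CPM, against 2.07 and 1.03 CPM in GADD45G libraries 1 and 2 and 3.68 to 5.62 CPM in GFP, with Scgb1a1, a secretory protein of airway cells, at 824 CPM. In the same library 11 collagen genes with at least 10 counts stood more than 2-fold above both other GADD45G libraries. Col3a1, a fibrillar collagen of soft connective tissue, had 2487 counts there, against 10 and 9 in GADD45G libraries 1 and 2 and 7, 19 and 20 in GFP. Col1a1, the major chain of type I collagen, had 970 counts against 65 and 62, and Col6a3, the large chain of type VI collagen, had 392 counts against 0 and 0. The others were Col6a1, Col6a2, Col7a1, Col13a1, Col14a1, Col15a1, Col23a1 and Col28a1. For the tested genes among these, results are given with and without that library. The share of all genes that met the same rule is not given here. The count of 11 is therefore not read as particular to collagens.

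**Figure D1:**
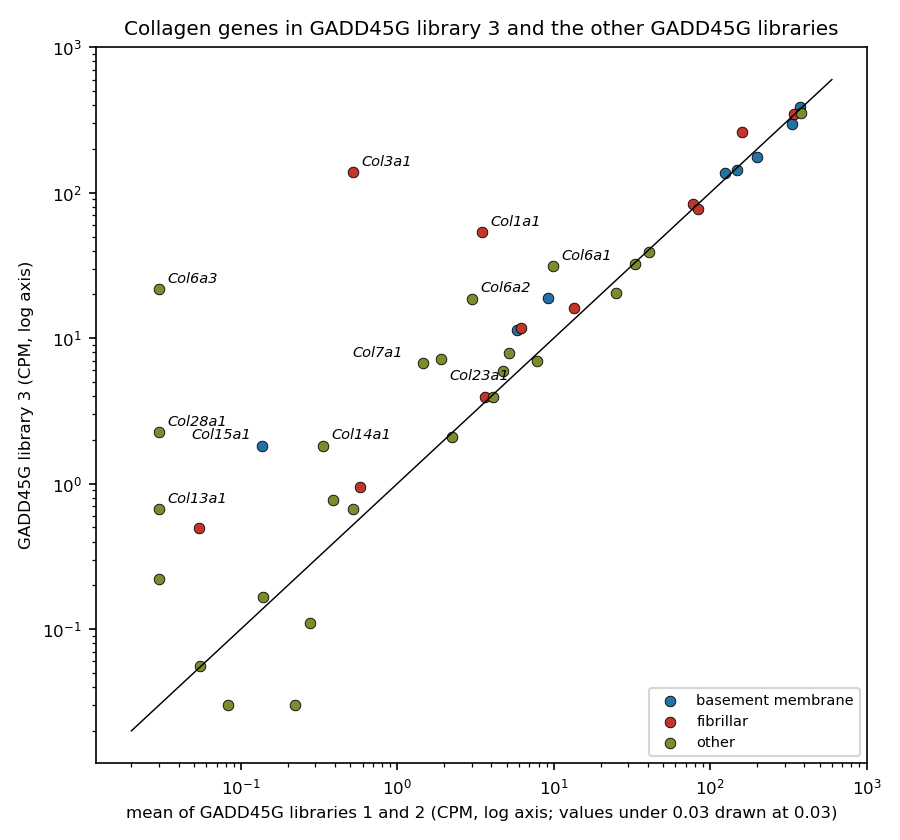
Level of each of the 44 collagen genes in GADD45G library 3 (vertical axis, CPM, log scale) against the mean of GADD45G libraries 1 and 2 (horizontal axis, CPM, log scale). The line marks equal levels, colours give the class, and the 11 named genes lie more than 2-fold above both other libraries, with Col3a1 at 138 CPM in library 3.

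Markers of astrocytes and of other cell types differed between groups as well. Of all genes tested, 30.6% were called higher and 29.7% lower in libraries labelled GADD45G (32.5 and 32.1% without GADD45G library 3). In libraries labelled shGADD45G these shares were 5.15 and 5.27%. Several of the marker counts below lie near these shares. All 8 astrocyte markers had counts in every library, and 7 were called higher in libraries labelled GADD45G and 5 lower in libraries labelled shGADD45G. Their level summed to 4077 to 4654 CPM in libraries labelled GADD45G against 2411 to 2420 CPM in GFP, and 3394 to 3545 CPM in libraries labelled shGADD45G against 4467 to 4508 CPM in shLuc. Of the oligodendrocyte lineage list 3 of 8 markers were called higher and 2 lower in libraries labelled GADD45G, and Sox10 was at 0 there and in GFP. The neuronal list, with 7 of 8 markers called lower, stood at 70.9 to 78.2 CPM in libraries labelled GADD45G and 241 to 249 CPM in GFP. The mural cell list, with 3 of 8 higher and 2 lower (2 and 2 without GADD45G library 3), stood at 427 to 437 CPM in libraries labelled GADD45G and 590.5 to 610.0 CPM in GFP, and its Kcnj8 was at 0 in GFP. Endothelial markers summed to 15.3, 14.8 and 93.4 CPM in libraries labelled GADD45G, highest in library 3, and to 137 to 145 CPM in GFP, nearly all of it Kdr (mean 138 CPM), with Cldn5 at 0 in GFP. Kdr was called lower and 3 of 8 higher, of which Flt1 and Egfl7 lost their call without library 3. The fibroblast and meningeal list stood at 809 to 844 CPM in libraries labelled GADD45G and 241 to 254 CPM in GFP, of which Ogn, a proteoglycan gene that is also on a list described last, made up 740.1 and 190.3 CPM. In the knockdown experiment that list stood at 1035 to 1833 CPM in libraries labelled shGADD45G and 659 to 686 CPM in shLuc, with Lum, Slc6a13 and Tbx18 at 0 in both groups. Nearly all of it was again Ogn, at means of 1292 CPM in libraries labelled shGADD45G and 646 CPM in shLuc. Microglial and macrophage markers stood at 15.0, 19.7 and 80.0 CPM in libraries labelled GADD45G, again highest in library 3, against 40.9 to 44.3 CPM in GFP, and 1 of 8 was called lower with that library and 6 without it. In the knockdown experiment 6 of 8 were called lower, at 15.4 to 40.1 CPM in libraries labelled shGADD45G and 124 to 151 CPM in shLuc. In these bulk libraries fewer cells of a type and less RNA per cell cannot be told apart, and the part of these lists in the collagen results was not tested.

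Astrocyte cultures of every group expressed a small set of collagens strongly. Compared per length, as FPKM (the deposited fragments per kilobase of gene, scaled to library size), the basement membrane class held 53.0 ± 3.99% of the summed collagen signal in libraries labelled GADD45G and 59.4 ± 0.0345% in GFP (SD, n = 3 each). It held 55.1 ± 4.68% in libraries labelled shGADD45G and 60.4 ± 0.234% in shLuc (SD, n = 3 each). Fibrillar collagens made up 22.4, 23.0 and 29.8% in libraries labelled GADD45G, against 17.2, 17.3 and 17.2% in GFP, so the groups did not overlap and library 3 was highest. Their share was 25.6, 24.3 and 24.1% in libraries labelled shGADD45G, against 23.5, 23.9 and 24.1% in shLuc. The other collagens took 21.8 to 22.0% in libraries labelled GADD45G and 23.3 to 23.4% in GFP. They spread most in libraries labelled shGADD45G, at 14.1, 22.0 and 24.6%, against 15.7 to 15.9% in shLuc.

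The most abundant members per length were few. In GFP the highest were Col4a5 (194 ± 0.816 FPKM, SD, n = 3), Col4a6 (125 ± 3.04) and Col8a1 (118 ± 0.9803), a short-chain collagen of vessel and corneal membranes. In libraries labelled GADD45G Col4a1 (49.95 ± 1.01 FPKM), Col4a5 (46.9 ± 2.95) and Col8a1 (46.7 ± 2.17) lay close together. Col4a1 also came first in libraries labelled shGADD45G (57.1 ± 10.4 FPKM) and in shLuc (44.8 ± 0.405 FPKM), where Col4a5 (44.7 ± 1.21 FPKM) was within its spread. All collagen genes together took 2337 to 2768 CPM of unscaled library totals in libraries labelled GADD45G and 4939 to 5034 in GFP, and 2281 to 2974 in libraries labelled shGADD45G and 1839 to 1932 in shLuc. In both experiments the groups did not overlap on this measure.

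**Figure D2:**
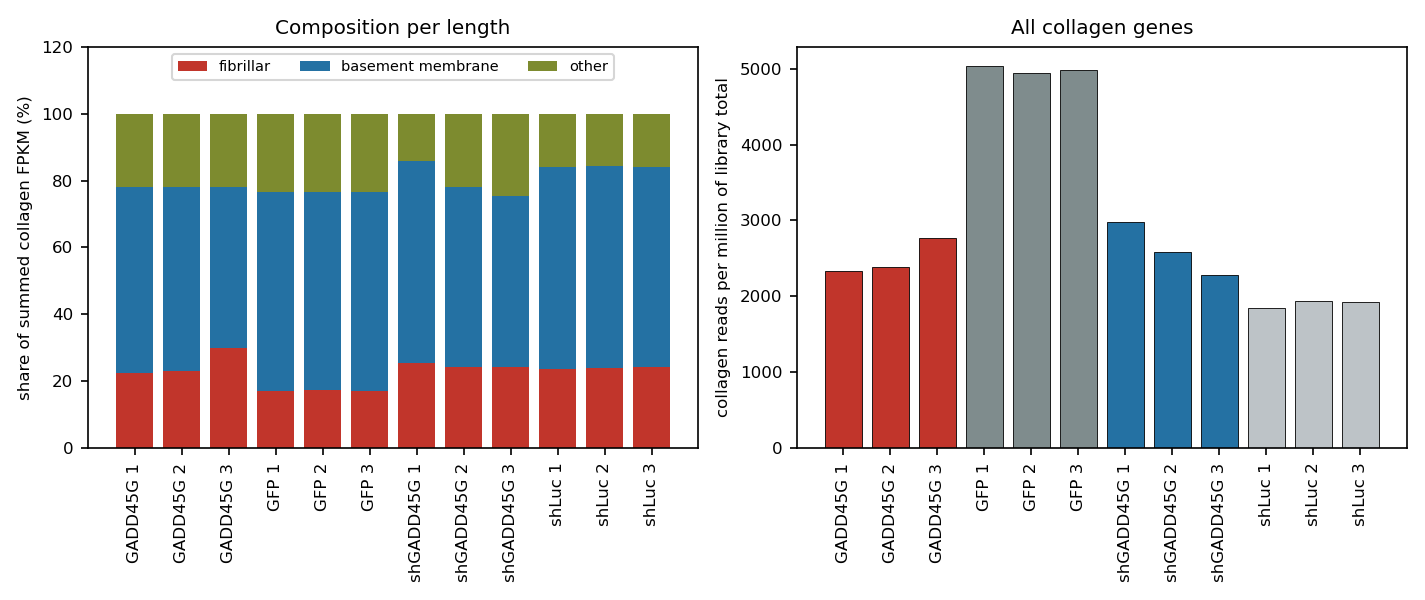
Left, share of the summed collagen FPKM held by fibrillar, basement membrane and other collagens in each of the 12 libraries (percent). Right, collagen counts per total library counts, as unscaled CPM, in the same libraries, lowest in shLuc (1839 to 1932) and highest in GFP (4939 to 5034).

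In the comparison of GADD45G with GFP, which asks how the collagen repertoire differs between astrocytes given GADD45G and those given a control protein, collagens moved in both directions. Of 32 members with enough reads to be tested, 11 were higher, 14 were lower and 7 did not pass. That is 78.1% of the tested members, where 60.3% of all 15418 genes tested passed (30.6% higher and 29.7% lower). Past 2-fold there were 7 higher and 10 lower members, where 9.07 and 9.64% of all genes were that much higher or lower. Without GADD45G library 3 these were 4 higher and 11 lower members, where 8.82 and 11.3% of all genes were past that size. The median log2 fold change of the members was -0.13, against 0.01 for all genes tested. With GADD45G library 3 left out, 9 members were higher and 15 lower, where 32.5 and 32.1% of all genes were called (64.6% in all). The calls for Col3a1 and Col6a2 were lost, Col7a1 was gained as lower, and 9 higher and 14 lower members were called both ways. The higher members numbered 6 without GFP library 2 and 7 without GFP library 3 (24.9% of all genes in each), and the lower ones 14 in each.

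**Figure D3:**
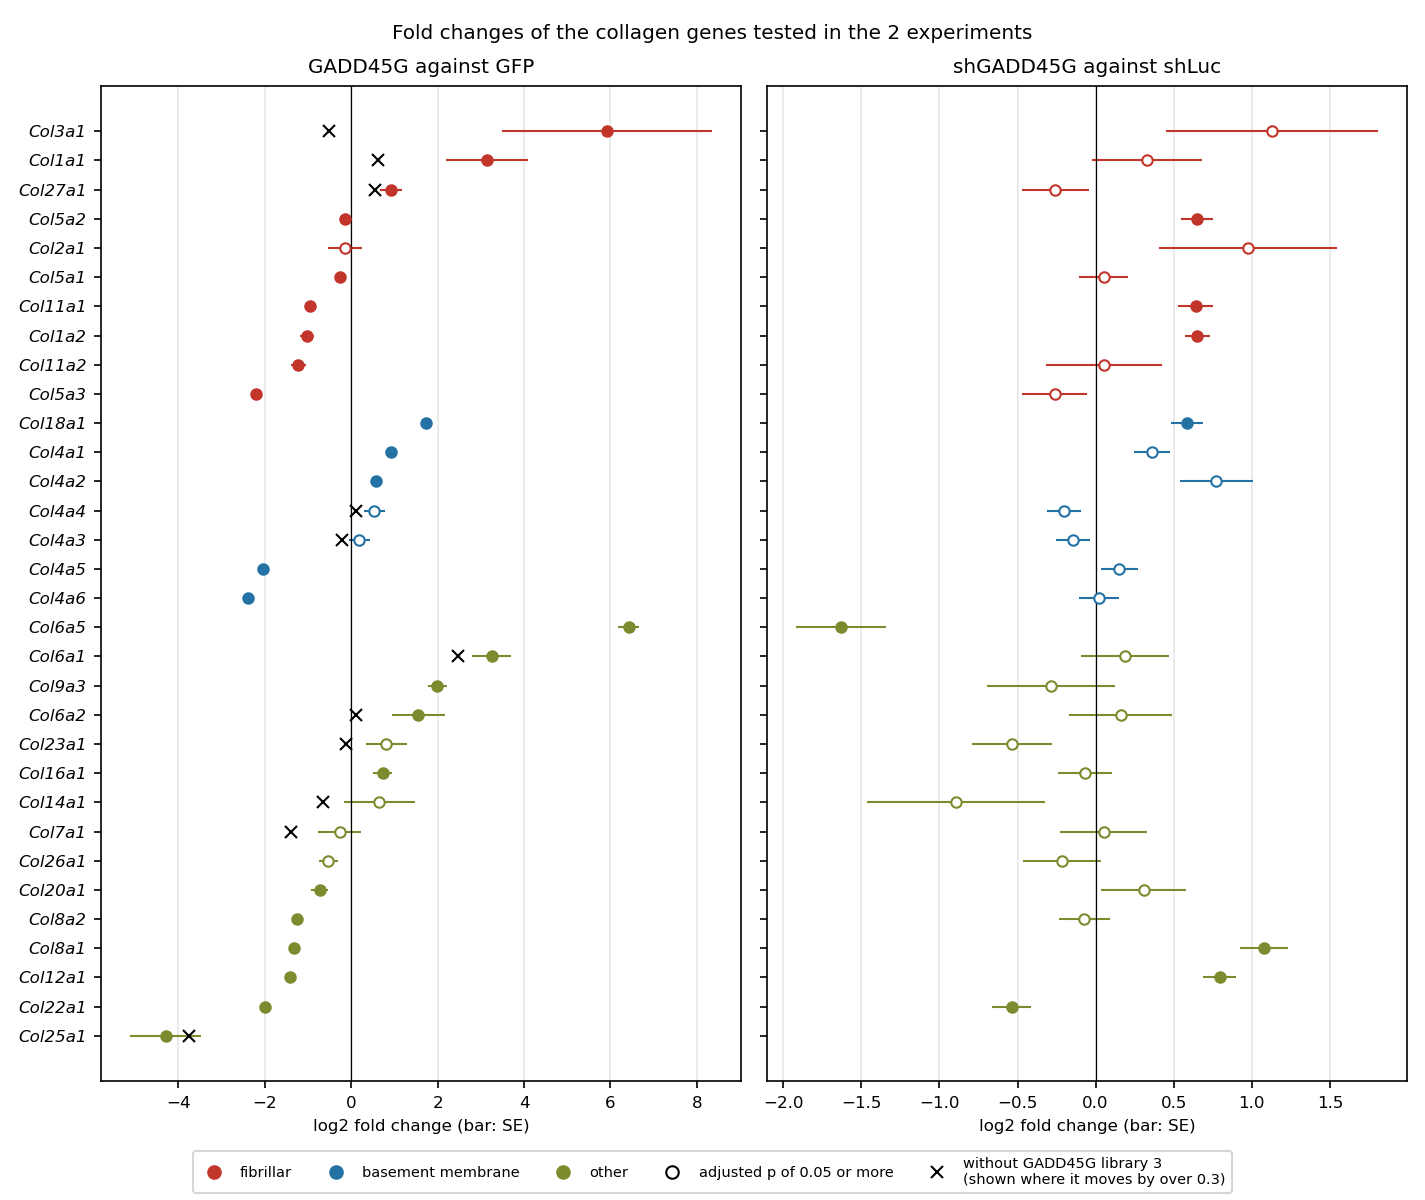
Log2 fold change with its standard error for the 32 collagen genes tested in the overexpression experiment, GADD45G against GFP (left) and shGADD45G against shLuc (right), grouped by class. Filled points passed the test, open points did not, and crosses give the value without GADD45G library 3 where it moved by over 0.3, as for Col3a1 (5.93 with all libraries and -0.51 without).

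Among basement membrane collagens 7 of 8 were tested, with 3 higher, 2 lower and 2 not passing. The split ran between chains. Col4a1 and Col4a2, whose products form the ubiquitous type IV trimer, were higher, while Col4a5 and Col4a6, which form the trimer of smooth muscle and some epithelial basement membranes, were lower. Col4a5 (ENSMUSG00000031274, chrX:141475385-141689234 on the plus strand, mm10) stood at 334, 330.1 and 297 CPM in libraries labelled GADD45G, against 1316, 1306 and 1318 CPM in GFP. The groups lay about 4-fold apart with no overlap (log2 fold change -2.04 ± 0.05, SE, edgeR adjusted p = 8.44e-11). Col4a6 (ENSMUSG00000031273, chrX:141165403-141474076 on the minus strand) stood at 195, 201 and 176 CPM in libraries labelled GADD45G, against 1032, 986 and 997 CPM in GFP, again with no overlap (log2 fold change -2.40 ± 0.05, SE, edgeR adjusted p = 4.47e-11).

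Col4a5 and Col4a6 lie head to head on the X chromosome with 1308 bases between their annotated starts, and they moved together, so the sequence upstream of each is shown. The windows are from RefSeq (GRCm38.p6), 5′ to 3′ on the gene's own strand, and end immediately before the first annotated exon. Capitals mark matches on either strand to the motifs searched, the TATA box TATAAA, the CAAT box CCAAT, the GC box GGGCGG and the AP-1 element TGANTCA, and no match overlapped another.
Col4a5 chrX:141475169-141475384 (plus strand): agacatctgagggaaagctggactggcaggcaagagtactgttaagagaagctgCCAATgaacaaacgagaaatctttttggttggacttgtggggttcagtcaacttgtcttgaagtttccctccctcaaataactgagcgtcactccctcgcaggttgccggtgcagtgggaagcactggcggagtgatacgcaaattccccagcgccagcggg
Col4a6 chrX:141474077-141474326 (minus strand): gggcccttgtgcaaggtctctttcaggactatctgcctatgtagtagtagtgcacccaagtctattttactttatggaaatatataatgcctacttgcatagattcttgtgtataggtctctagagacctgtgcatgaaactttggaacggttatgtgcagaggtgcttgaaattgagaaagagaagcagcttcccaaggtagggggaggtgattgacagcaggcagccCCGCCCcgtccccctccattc
The Col4a5 window of 216 bases held 1 CCAAT, which 30.5% of 32851 promoters held in a window of that length. The Col4a6 window of 250 bases held 1 GGGCGG on the opposite strand, which 32.7% of all promoters held. Neither held TATAAA or TGANTCA in these letters.

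Col4a1 (ENSMUSG00000031502, chr8:11198423-11312826 on the minus strand) stood at 372, 379 and 386 CPM in libraries labelled GADD45G, against 203, 194 and 203 CPM in GFP (log2 fold change 0.92 ± 0.04, SE, edgeR adjusted p = 1.05e-08). Its partner Col4a2 (ENSMUSG00000031503, chr8:11312805-11449287 on the plus strand), which overlaps it by 22 bases at the shared start, stood at 124, 124 and 137 CPM in libraries labelled GADD45G, against 84.1, 85.2 and 89.2 CPM in GFP (log2 fold change 0.58 ± 0.05, SE, edgeR adjusted p = 4e-06). Neither gene's groups overlapped, and the change was 1.90-fold for Col4a1 and 1.49-fold for Col4a2. Col18a1 (ENSMUSG00000001435, chr10:77052178-77166548 on the minus strand), which encodes the heparan sulfate collagen that releases endostatin, had the largest rise of the class at 149, 149 and 142 CPM in libraries labelled GADD45G, against 46.5, 44.4 and 41.4 CPM in GFP (log2 fold change 1.74 ± 0.05, SE, edgeR adjusted p = 5.51e-10). Col18a1 overlaps Slc19a1 on the other strand, and the sources used here do not say whether reads were counted by strand. Slc19a1 had 1855 counts over the 6 libraries and Col18a1 10661.

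Col4a3 and Col4a4, the chains that join Col4a5 in kidney, lung and inner ear, did not pass. They lie head to head 71 bases apart on chromosome 1. Col4a3 stood at 5.87, 5.83 and 11.4 CPM in libraries labelled GADD45G, against 6.29, 7.17 and 6.84 CPM in GFP, and Col4a4 at 8.996, 9.53 and 18.9 CPM in libraries labelled GADD45G, against 8.29, 9.13 and 8.404 CPM in GFP. In both the highest value was GADD45G library 3 and the groups overlapped. Their log2 fold changes were 0.19 ± 0.24 and 0.53 ± 0.24 (SE) with all libraries, and -0.21 and 0.11 without that library. Col15a1, a basement-membrane-zone collagen of muscle and vessels, was not tested. It had 2, 3 and 33 counts in libraries labelled GADD45G and 1, 6 and 3 in GFP.

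Among fibrillar collagens 6 of 10 tested members were lower, 3 higher and 1 not passing. The largest fall was that of Col5a3, a minor type V chain, at 13.5, 13.6 and 16.02 CPM in libraries labelled GADD45G, against 66.2, 66.1 and 65.1 CPM in GFP (log2 fold change -2.19 ± 0.07, SE, edgeR adjusted p = 4.38e-10). Col1a2, the second chain of type I collagen, stood at 157, 165 and 264 CPM in libraries labelled GADD45G, against 405, 389 and 392 CPM in GFP (log2 fold change -1.02 ± 0.15, SE, edgeR adjusted p = 0.000175). The groups did not overlap, library 3 was the highest of its group, and the value was -1.29 without it. Col11a1, a chain that sets fibril diameter in cartilage, stood at 77.3, 90.8 and 77.8 CPM in libraries labelled GADD45G, against 161, 158 and 160.1 CPM in GFP (log2 fold change -0.96 ± 0.06, SE, edgeR adjusted p = 2.2e-07). Its partner chain Col11a2 stood at 2.85, 4.41 and 3.94 CPM in libraries labelled GADD45G, against 8.39, 9.28 and 8.45 CPM in GFP (log2 fold change -1.22 ± 0.18, SE, edgeR adjusted p = 0.000128). Both Col11 genes were lower in each library labelled GADD45G than in any GFP library.

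The type V chains Col5a1 and Col5a2, which nucleate type I fibrils, fell by less. Col5a2 stood at 339, 349 and 349 CPM in libraries labelled GADD45G, against 376, 384 and 378 CPM in GFP, and Col5a1 at 76.5, 78.9 and 83.9 CPM in libraries labelled GADD45G, against 99.2, 89.99 and 96.9 CPM in GFP. The groups lay apart, but the log2 fold changes were only -0.13 ± 0.04 (SE, edgeR adjusted p = 0.0133) and -0.26 ± 0.06 (SE, edgeR adjusted p = 0.00212). Both calls were lost when all 12 libraries were fitted together.

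The 3 fibrillar genes called higher depended on GADD45G library 3 to different degrees. Col27a1, a fibrillar collagen of cartilage, stood at 6.15, 6.26 and 11.8 CPM in libraries labelled GADD45G, against 3.84, 3.78 and 5.08 CPM in GFP (log2 fold change 0.93 ± 0.26, SE, edgeR adjusted p = 0.00937). Without that library its value was 0.55 (edgeR adjusted p = 0.00716), and the call was lost without GFP library 1 or 2. Col1a1 stood at 3.63, 3.38 and 53.8 CPM in libraries labelled GADD45G, against 2.200, 2.53 and 2.101 CPM in GFP (log2 fold change 3.15 ± 0.95, SE, edgeR adjusted p = 0.0136). Its log2 fold change was 0.62 (edgeR adjusted p = 0.0165) without library 3, so the size rested on that library, and leaving out any 1 of the GFP libraries ended the call. Col3a1 stood at 0.559, 0.4900 and 138 CPM in libraries labelled GADD45G, against 0.358, 0.909 and 0.977 CPM in GFP, and the groups overlapped. It was called higher with all libraries (log2 fold change 5.93 ± 2.43, SE, edgeR adjusted p = 0.016) and its direction turned without library 3, at -0.51 (edgeR adjusted p = 0.383). Col2a1, the cartilage collagen, did not pass, at 0.559, 0.599 and 0.943 CPM in libraries labelled GADD45G, against 0.563, 0.861 and 0.8795 CPM in GFP.

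Type I collagen was represented almost wholly by Col1a2. In GFP its deposited FPKM was 31.6 ± 0.682, while that of Col1a1, which supplies most chains of the type I trimer, was 0.344 ± 0.0346 (SD, n = 3). The log2 ratio of Col1a1 to Col1a2 was -4.51, -4.69 and -1.37 in libraries labelled GADD45G, against -6.60, -6.34 and -6.62 in GFP. In the knockdown experiment it was -6.08, -5.74 and -5.44 in libraries labelled shGADD45G, against -6.14, -5.14 and -5.23 in shLuc. Col1a1 was the scarcer chain in all 12 libraries, least so in GADD45G library 3. The authors' gene length is 12426 bases for Col1a2 and 6563 for Col1a1, and the ratio rests on these lengths.

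Of the 25 other collagens 15 were tested, with 5 higher, 6 lower and 4 not passing. Within the beaded filament family the 3 tested of 6 members were called higher. Col6a5 (ENSMUSG00000091345, chr9:105856078-105960643 on the minus strand), a type VI chain known from skin and lung, rose most, at 31.2, 35.01 and 32.6 CPM in libraries labelled GADD45G, against 0.563, 0.335 and 0.244 CPM in GFP (log2 fold change 6.42 ± 0.25, SE, edgeR adjusted p = 1.43e-10). The GFP libraries held 11, 7 and 5 counts. The value was 6.43 without GADD45G library 3, so the rise was as large without that library. Its neighbours on chromosome 9, Col6a6 at 27917 bases and Col6a4 at 28810 bases, had at most 5 counts in any library where they were listed and were not tested.

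Col6a5 was near 0 in GFP and clearly present in libraries labelled GADD45G, so the window upstream of its start is shown as above (RefSeq, GRCm38.p6, capitals marking motif matches).
Col6a5 chr9:105960644-105960893 (minus strand): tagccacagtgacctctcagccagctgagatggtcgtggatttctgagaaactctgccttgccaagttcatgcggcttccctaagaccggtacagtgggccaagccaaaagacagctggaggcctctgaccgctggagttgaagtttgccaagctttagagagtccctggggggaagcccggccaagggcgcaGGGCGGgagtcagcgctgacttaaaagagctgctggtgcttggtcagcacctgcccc
It held 1 GGGCGG on the printed strand, against 32.7% of all promoters of 250 bases, and none of the other motifs in these letters.

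Col6a1, a core type VI chain, stood at 8.102, 11.8 and 31.2 CPM in libraries labelled GADD45G, against 1.48, 2.06 and 1.81 CPM in GFP (log2 fold change 3.25 ± 0.46, SE, edgeR adjusted p = 9.68e-05). The 2 lower GADD45G libraries also stood above every GFP library, and without library 3 the value was 2.47 (edgeR adjusted p = 3e-10). Col6a2, its partner chain, stood at 3.46, 2.56 and 18.7 CPM in libraries labelled GADD45G, against 2.87, 2.15 and 3.37 CPM in GFP, and the groups overlapped. It was called higher (log2 fold change 1.56 ± 0.62, SE, edgeR adjusted p = 0.0493), but its value was 0.11 (edgeR adjusted p = 0.703) without library 3, and the call was also lost with DESeq2, limma-voom, either other scaling or no count filter. Col6a3 was not tested and had counts of 0, 0 and 392 in libraries labelled GADD45G, against 1, 0 and 1 in GFP. Outside library 3 the third chain of the classic type VI trimer was therefore at or near 0.

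The collagens that attach to fibrils (FACITs) were split, with 2 of 6 tested members higher, 3 lower and 1 not passing. Col12a1, which links fibrils in tendon and healing tissue, stood at 41.9, 38.9 and 38.9 CPM in libraries labelled GADD45G, against 112, 100.03 and 107 CPM in GFP (log2 fold change -1.41 ± 0.06, SE, edgeR adjusted p = 3.09e-09). Col22a1, a collagen of tissue junctions, stood at 24.4, 25.4 and 20.5 CPM in libraries labelled GADD45G, against 97.4, 93.3 and 88.05 CPM in GFP (log2 fold change -1.99 ± 0.07, SE, edgeR adjusted p = 1.95e-09). Every library labelled GADD45G lay below every GFP library for both genes. Col20a1 was lower as well, at 4.69, 3.54 and 3.94 CPM in libraries labelled GADD45G, against 5.47, 6.65 and 8.06 CPM in GFP (log2 fold change -0.73 ± 0.19, SE, edgeR adjusted p = 0.00707). It shares its strand with the overlapping 9230112E08Rik, which had 601 counts against 631 for Col20a1 over the 6 libraries, so its value is uncertain.

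Col9a3, a type IX chain of cartilage, was higher, at 4.92, 4.63 and 5.99 CPM in libraries labelled GADD45G, against 1.43, 1.24 and 1.22 CPM in GFP (log2 fold change 1.99 ± 0.22, SE, edgeR adjusted p = 1.4e-05). Col16a1, a minor collagen of skin and muscle, was higher by less, at 5.14, 5.23 and 7.87 CPM in libraries labelled GADD45G, against 4.400, 3.68 and 2.93 CPM in GFP (log2 fold change 0.73 ± 0.23, SE, edgeR adjusted p = 0.017). The groups did not overlap for either gene, and the Col16a1 call was lost without GFP library 2 or 3. Col14a1 did not pass and was below 2 CPM in all 6 libraries (log2 fold change 0.65 ± 0.81, SE, and -0.65 without library 3).

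Both tested short-chain collagens fell. Col8a1 (ENSMUSG00000068196, chr16:57624258-57754737 on the minus strand) stood at 377, 386 and 352 CPM in libraries labelled GADD45G, against 942, 927 and 938 CPM in GFP (log2 fold change -1.33 ± 0.04, SE, edgeR adjusted p = 8.36e-10). Col8a2, its partner in the hexagonal lattice, stood at 8.38, 7.296 and 6.99 CPM in libraries labelled GADD45G, against 20.01, 16.7 and 17.4 CPM in GFP (log2 fold change -1.26 ± 0.11, SE, edgeR adjusted p = 2.93e-06). The groups did not overlap in either gene. Among the transmembrane collagens Col25a1, whose shed ectodomain binds amyloid, had 1, 2 and 0 counts in libraries labelled GADD45G and 24, 24 and 25 in GFP. The ratio of GFP to GADD45G counts, corrected for library scale, was 21.7 with a counting interval of 7.13 to 108 (95%, counting error only; log2 fold change -4.29 ± 0.82, SE, edgeR adjusted p = 9.41e-05). Col23a1 did not pass and stood at 2.07, 1.74 and 7.21 CPM in libraries labelled GADD45G, against 1.89, 1.72 and 2.64 CPM in GFP. Its log2 fold change was 0.81 ± 0.48 (SE) with all libraries and -0.13 without library 3, its highest.

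Col8a1 was among the 3 highest collagens of GFP and moved in both experiments, and the window upstream of its start is shown in the same way.
Col8a1 chr16:57754738-57754987 (minus strand): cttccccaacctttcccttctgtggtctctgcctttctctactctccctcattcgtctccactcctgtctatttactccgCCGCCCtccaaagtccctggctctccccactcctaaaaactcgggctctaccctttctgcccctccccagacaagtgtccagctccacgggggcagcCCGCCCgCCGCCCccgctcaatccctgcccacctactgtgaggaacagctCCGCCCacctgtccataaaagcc
It held 4 GGGCGG matches, all on the opposite strand, and none of the other motifs in these letters. At least 1 GGGCGG was held by 32.7% of all promoters of 250 bases, and the share with 4 is not given here. A match is a description of the window only.

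The anchoring fibril gene Col7a1 did not pass with all libraries, at 1.56, 1.36 and 6.71 CPM in libraries labelled GADD45G, against 3.48, 3.59 and 4.495 CPM in GFP (log2 fold change -0.26 ± 0.50, SE, edgeR adjusted p = 0.672). Without GADD45G library 3 its value was -1.39 (edgeR adjusted p = 3.77e-05), and the remaining libraries of the groups did not overlap. Col26a1 stood at 2.403, 2.07 and 2.11 CPM in libraries labelled GADD45G, against 2.92, 3.16 and 3.42 CPM in GFP and did not pass either (edgeR adjusted p = 0.0536).

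In the comparison of shGADD45G with shLuc, which asks what follows lowering of endogenous Gadd45g, itself not shown to be lower here, fewer collagens moved and most of them were higher. Of 31 members tested 6 were higher, 2 were lower and 23 did not pass. That is 25.8% of the tested members, where 10.4% of all 14914 genes passed (5.15% higher and 5.27% lower). The median log2 fold change was 0.05, against 0.01 for all genes tested. Fibrillar collagens gave 3 of the 6 rises and no fall among 10 tested (median 0.48). Basement membrane collagens gave 1 rise among 7 (median 0.15), and other collagens gave 2 rises and 2 falls among 14 (median -0.07). The lower members numbered 1 without the library labelled shGADD45G 2 or without any single shLuc library. Of all genes tested, 4.79% were lower without the library labelled shGADD45G 2 and 1.92 to 2.22% without a shLuc library.

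Col8a1 rose most, at 287, 448 and 456 CPM in libraries labelled shGADD45G, against 185, 189 and 189.99 CPM in shLuc (log2 fold change 1.08 ± 0.15, SE, edgeR adjusted p = 0.00231). Col12a1 stood at 49.9, 55.3 and 61.5 CPM in libraries labelled shGADD45G, against 29.97, 31.6 and 34.5 CPM in shLuc (log2 fold change 0.79 ± 0.10, SE, edgeR adjusted p = 0.00171). Each library labelled shGADD45G exceeded every shLuc library for both genes, and the library labelled shGADD45G 1 was the lowest of its group in both. The fibrillar genes rose by similar amounts. Col1a2 stood at 137, 127 and 118 CPM in libraries labelled shGADD45G, against 82.4, 80.5 and 81.2 CPM in shLuc (log2 fold change 0.65 ± 0.08, SE, edgeR adjusted p = 0.00135). Col5a2 stood at 455, 386 and 343 CPM in libraries labelled shGADD45G, against 245, 255 and 257 CPM in shLuc (log2 fold change 0.65 ± 0.10, SE, edgeR adjusted p = 0.00397), and Col11a1 at 233, 182 and 177 CPM in libraries labelled shGADD45G, against 119, 128 and 133 CPM in shLuc (log2 fold change 0.64 ± 0.11, SE, edgeR adjusted p = 0.00619). In these 3 genes the library labelled shGADD45G 1 was the highest.

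Col18a1 was the basement membrane collagen that passed, at 182, 175 and 139 CPM in libraries labelled shGADD45G, against 109.8, 115 and 106 CPM in shLuc (log2 fold change 0.58 ± 0.11, SE, edgeR adjusted p = 0.00733). That call was lost without shLuc library 1 or 3. Col4a1 and Col4a2 did not pass although their groups did not overlap. Col4a1 stood at 509.8, 415 and 356 CPM in libraries labelled shGADD45G, against 329, 336 and 334 CPM in shLuc (log2 fold change 0.36 ± 0.12, SE, edgeR adjusted p = 0.0839). Col4a2 stood at 269, 157 and 119 CPM in libraries labelled shGADD45G, against 101, 110.1 and 109 CPM in shLuc (0.77 ± 0.23, SE, edgeR adjusted p = 0.0673). The library labelled shGADD45G 1 was far above the other libraries of its group for Col4a2, and its mural cell markers also summed to 552 CPM, against 335 and 332 CPM in the other libraries labelled shGADD45G and 285 to 293 CPM in shLuc, a difference whose part in the result was not tested.

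The lower members were Col6a5 and Col22a1. Col6a5 had 19, 19 and 10 counts in libraries labelled shGADD45G, against 49, 54 and 49 in shLuc, or 1.02, 1.08 and 0.655 CPM in libraries labelled shGADD45G, against 3.03, 2.83 and 2.800 CPM in shLuc (log2 fold change -1.63 ± 0.29, SE, edgeR adjusted p = 0.00646). Col22a1 stood at 21.3, 19.2 and 16.6 CPM in libraries labelled shGADD45G, against 24.8, 28.6 and 29.7 CPM in shLuc (log2 fold change -0.54 ± 0.13, SE, edgeR adjusted p = 0.0245), and the call was lost without the library labelled shGADD45G 2 or without any single shLuc library. Of the members that did not pass, Col4a5 stood at 399, 314 and 281 CPM in libraries labelled shGADD45G, against 289.9, 307 and 299 CPM in shLuc, and Col4a6 at 166, 130.5 and 114 CPM in libraries labelled shGADD45G, against 127, 133 and 144 CPM in shLuc. Both overlapped between the groups, with log2 fold changes of 0.15 ± 0.12 and 0.02 ± 0.13 (SE).

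The remaining members that did not pass spanned a wide range of levels. Col5a3 stood at 40.1, 30.7 and 19.7 CPM in libraries labelled shGADD45G, against 32.1, 38.7 and 38.1 CPM in shLuc, and Col5a1 at 69.8, 53.2 and 42.4 CPM in libraries labelled shGADD45G, against 52.8, 56.9 and 50.2 CPM in shLuc. The library labelled shGADD45G 3 was the lowest of the 6 for both genes. Col4a4 stood at 21.8, 25.1 and 21.6 CPM in libraries labelled shGADD45G, against 27.9, 25.2 and 25.7 CPM in shLuc and Col4a3 at 18.2, 17.3 and 19.2 CPM in libraries labelled shGADD45G, against 21.6, 19.99 and 18.97 CPM in shLuc, with log2 fold changes of -0.20 ± 0.11 and -0.14 ± 0.11 (SE). Col27a1 stood at 9.96, 17.7 and 11.5 CPM in libraries labelled shGADD45G, against 13.2, 15.5 and 18.1 CPM in shLuc, and its groups overlapped. Col8a2, Col16a1, Col20a1, Col11a2, Col6a1, Col9a3, Col6a2, Col1a1 and Col3a1 lay between log2 fold changes of -0.29 (Col9a3) and 1.13 (Col3a1), each with overlapping groups. Col2a1, Col7a1, Col14a1, Col23a1 and Col26a1 lay between -0.90 (Col14a1) and 0.98 (Col2a1). Col3a1 and Col1a1 were at or below 1.44 CPM in all 6 libraries.

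All 8 members called in the knockdown experiment were also called in the overexpression experiment. There 78.1% of tested members and 60.3% of all genes tested were called. The share of all genes called in both experiments is not given here, so the overlap is not read as particular to collagens. Col1a2, Col5a2, Col8a1, Col11a1 and Col12a1 were lower in libraries labelled GADD45G and higher in libraries labelled shGADD45G, and Col6a5 was the reverse. Col18a1 was higher and Col22a1 lower in both. The 2 contrasts have separate controls, and their difference was tested in a joint fit of all 12 libraries. Of 34 members tested the GADD45G contrast was above the shGADD45G contrast in 7 and below it in 12. That is 55.9%, where 41.0% of all 15900 genes passed (20.2% higher and 20.7% lower). All 6 members with opposite calls passed this test, as did Col18a1 and Col22a1. The 6 were picked by opposite calls in the same libraries, so their passing was largely fixed in advance and adds no support. As a log2 difference of the contrasts, Col6a5 stood at 8.04 ± 0.35 (SE, edgeR adjusted p = 1.44e-10). Col8a1 stood at -2.42 ± 0.18 (SE, edgeR adjusted p = 7.88e-08) and Col12a1 at -2.21 ± 0.12 (SE, edgeR adjusted p = 3.54e-09). Col1a2 stood at -1.68 ± 0.20 (SE, edgeR adjusted p = 1.4e-05). A further 11 members called in the overexpression experiment alone also passed the test of the difference. Among them were Col4a5 (-2.19 ± 0.14, SE, edgeR adjusted p = 1.96e-08) and Col4a6 (-2.43 ± 0.15, SE, edgeR adjusted p = 1.5e-08). The difference includes the contrast by which these 11 were picked, so their passing partly repeats that call and adds no support. The share of all genes that did the same is not given here. Col4a2 did not pass (-0.20 ± 0.28, SE, edgeR adjusted p = 0.599). With GADD45G library 3 left out, the difference was higher for 5 members and lower for 13, where 18.9 and 20.2% of all genes were called (39.1% in all).

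Levels over the 4 groups, with all 12 libraries scaled together, showed that the controls of the 2 experiments lay apart for many collagens. GFP had the highest mean of the groups for 12 of the 28 members named by rule and the lowest for 11. The shLuc mean lay nearer the GADD45G mean than the GFP mean for 19. Some of the 28 were named by a 2-fold call between groups of these same libraries, which favours such orders. The shares over all genes are not given here, so these counts are not read as particular to collagens. The GADD45G mean was above the shLuc mean for Col1a2 (193 and 82.1 CPM), Col5a2 (342 and 254) and Col8a1 (367 and 190). So it was for Col12a1 (39.4 and 32.3), while Col11a1 (81.0 and 128) ran the other way. These members were called lower against GFP and higher in libraries labelled shGADD45G. Col4a5 stood at 330.5, 325 and 294 CPM in libraries labelled GADD45G, 1311, 1305 and 1313 CPM in GFP, 401, 316 and 282 CPM in libraries labelled shGADD45G and 293, 309.6 and 301 CPM in shLuc. GFP alone was high, at 4.35 times the shLuc mean. The same ratio of GFP to shLuc means was 7.36 for Col4a6, 4.92 for Col8a1 and 4.80 for Col1a2. Col4a3 and Col4a4 ran the other way, with shLuc at 3.02 and 3.09 times the GFP mean. Col6a5 was ordered differently, highest in libraries labelled GADD45G, then shLuc, then shGADD45G, then GFP, and no neighbours in that order overlapped. Experiment, virus and control protein cannot be told apart in these differences between controls.

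**Figure D4:**
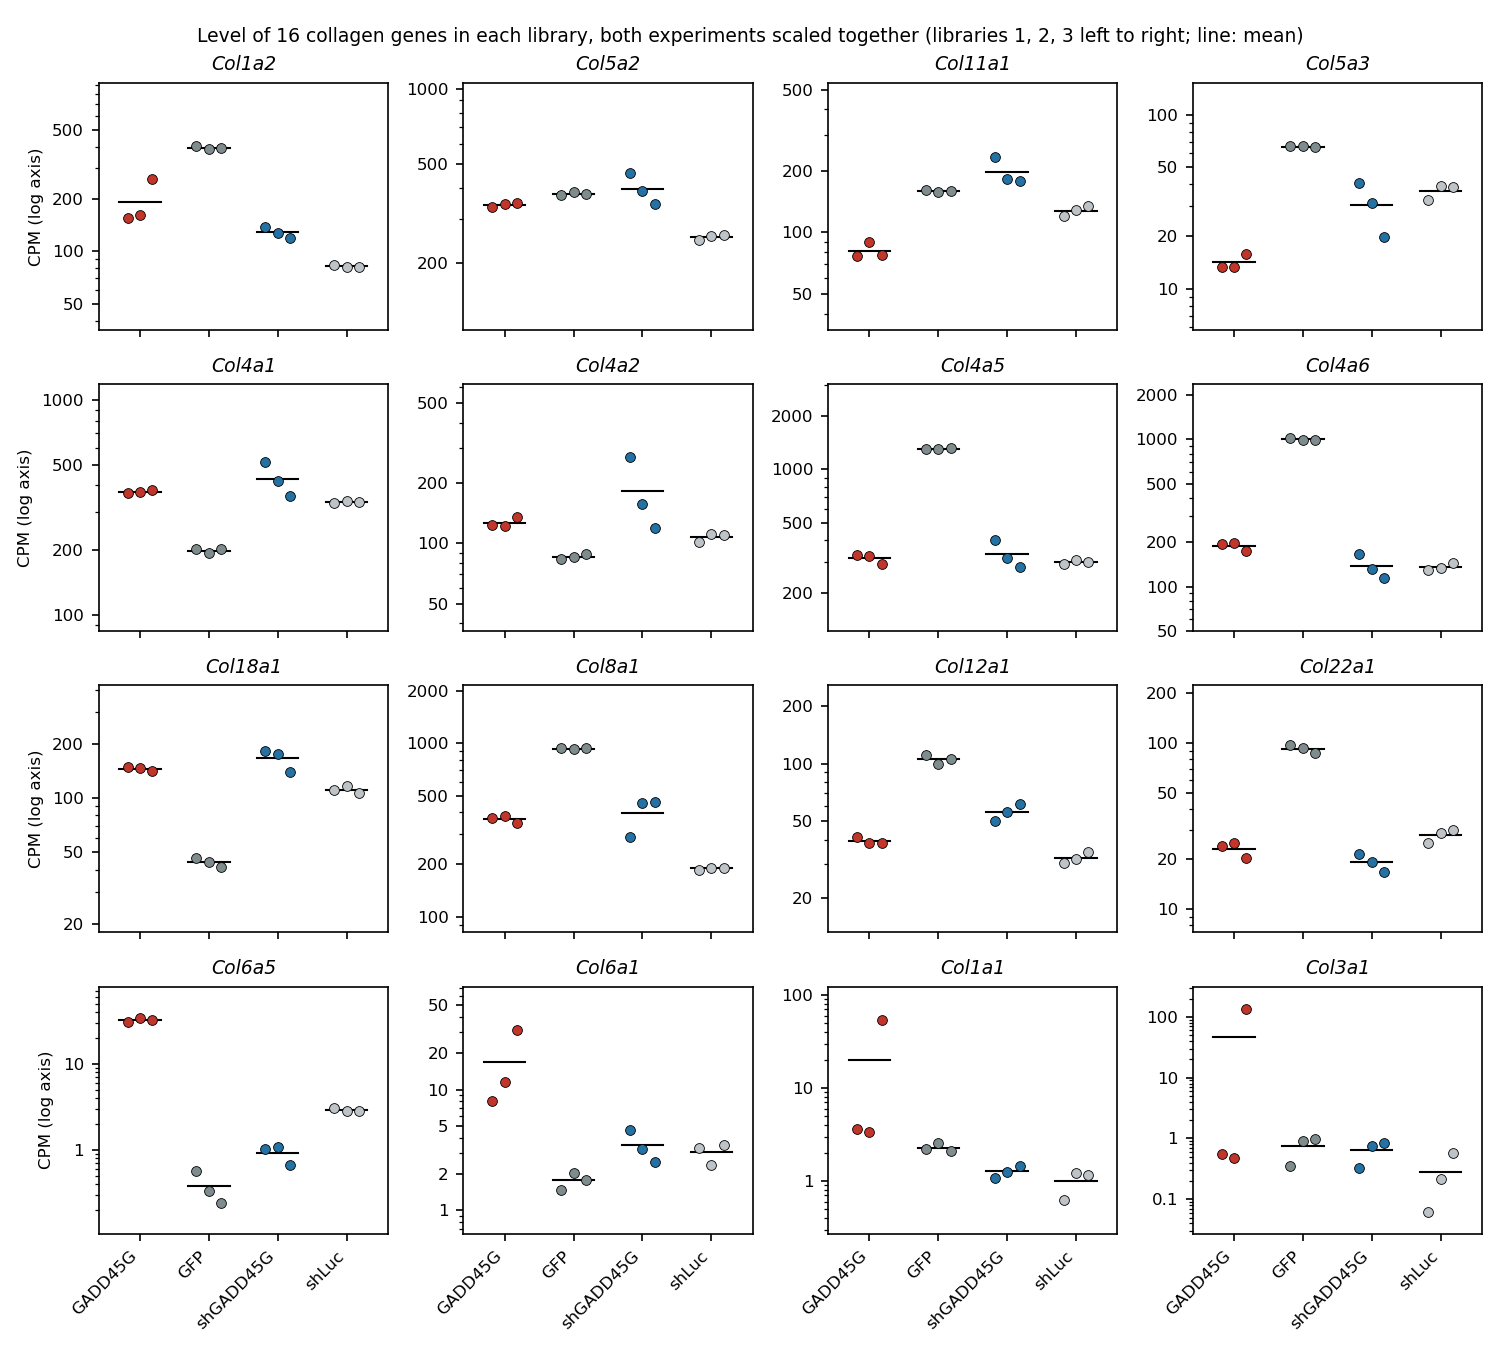
Level (CPM, log axis, all 12 libraries scaled together) of 16 collagen genes in libraries labelled GADD45G, GFP, shGADD45G and shLuc. Points are libraries 1 to 3 from left to right and lines are means of 3. Col4a5, Col4a6, Col8a1 and Col22a1 are high in GFP alone, and Col3a1 and Col1a1 are high in GADD45G library 3 alone.

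The balance of partner chains was compared within each library as a log2 ratio of FPKM, which does not depend on scaling between libraries. There were 14 such comparisons, 7 pairs in each experiment, and 3 libraries against 3 cannot give an exact p below 0.1, so none could reach 0.05. The smallest value after Benjamini-Hochberg adjustment over the 14 was 0.156. Col4a1 to Col4a2 was 1.39 ± 0.06 in libraries labelled GADD45G and 1.04 ± 0.05 in GFP (SD, n = 3 each; exact permutation p = 0.1), and 1.13 ± 0.34 in libraries labelled shGADD45G and 1.47 ± 0.06 in shLuc (SD, n = 3 each; exact permutation p = 0.1). Col4a5 to Col4a6 was 0.99 ± 0.03 in libraries labelled GADD45G and 0.63 ± 0.03 in GFP (SD, n = 3 each; exact permutation p = 0.1), and 1.53 ± 0.02 in libraries labelled shGADD45G and 1.40 ± 0.09 in shLuc (SD, n = 3 each; exact permutation p = 0.1). The libraries of the paired groups did not overlap in any of these 4 comparisons. Although both Col4a5 and Col4a6 fell, Col4a6 was thus the lower relative to its partner in libraries labelled GADD45G.

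Col8a1 to Col8a2 was 4.82 ± 0.12 in libraries labelled GADD45G and 4.90 ± 0.13 in GFP (SD, n = 3 each; exact permutation p = 0.5). It was 4.62 ± 0.61 in libraries labelled shGADD45G and 3.48 ± 0.10 in shLuc (SD, n = 3 each; exact permutation p = 0.1), and here the groups did not overlap. Col5a1 to Col5a2 was -2.68 ± 0.15 in libraries labelled shGADD45G and -2.07 ± 0.10 in shLuc (SD, n = 3 each; exact permutation p = 0.1), where Col5a2 rose and Col5a1 did not pass. In the overexpression experiment that pair overlapped (exact permutation p = 0.2). Col11a1 to Col11a2 was 3.58 ± 0.25 in libraries labelled GADD45G and 3.30 ± 0.09 in GFP (SD, n = 3 each; exact permutation p = 0.1). The Col6a1 to Col6a2 ratio was 2.15, 3.13 and 1.67 in libraries labelled GADD45G, against -0.02, 0.86 and 0.03 in GFP, with no overlap. The Col6a3 to Col6a1 and Col9a1 to Col9a2 pairs had libraries under 10 counts and were left out.

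**Figure D5:**
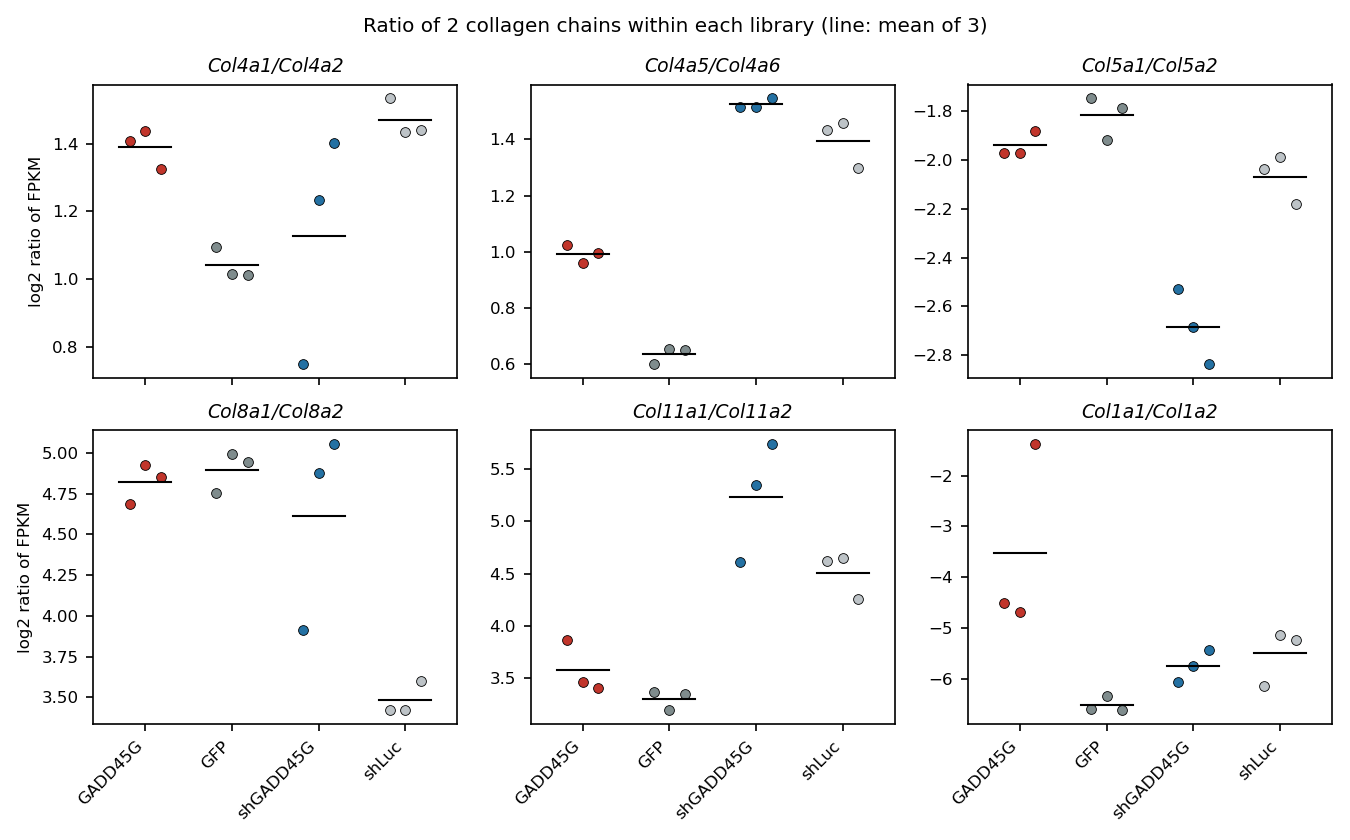
Log2 ratio of the FPKM of 6 pairs of collagen chains within each library (vertical axes), in libraries labelled GADD45G, GFP, shGADD45G and shLuc. Points are libraries 1 to 3 from left to right and lines are means of 3. The Col4a5 to Col4a6 ratio is lowest in GFP (mean 0.63) and Col1a1 to Col1a2 is highest in GADD45G library 3.

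Genes that build, cross-link, bind or cleave collagen were followed on lists, of which up to 4 tested genes each were named by rule and the rest after their values were seen. Of 19 modification and folding genes 5 were higher and 12 lower in libraries labelled GADD45G, and 2 did not pass, where 30.6 and 29.7% of all genes tested were higher or lower. P4ha2, a prolyl hydroxylase subunit that stabilizes the triple helix, averaged 25.9 ± 0.233 CPM in libraries labelled GADD45G and 6.05 ± 0.683 CPM in GFP (SD, n = 3 each; log2 fold change 2.09, edgeR adjusted p = 1.21e-08). P4ha1, the main such subunit, averaged 371 ± 18.1 CPM in libraries labelled GADD45G and 544 ± 1.78 CPM in GFP (SD, n = 3 each; log2 fold change -0.55, edgeR adjusted p = 1.25e-06). Plod1, a lysyl hydroxylase, averaged 51.3 ± 1.73 CPM in libraries labelled GADD45G and 131 ± 1.84 CPM in GFP (SD, n = 3 each; log2 fold change -1.35, edgeR adjusted p = 1.23e-09), and P4ha3 fell by 0.44 on the log2 scale. The other higher genes were P3h2, Colgalt2, Plod3 and Tmem38b, by 0.19 (Plod3) to 0.67 (Colgalt2).

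Of 16 tested secretion, processing and cross-linking genes 12 were higher, 3 lower and 1 did not pass, against the same shares of all genes. Loxl2, a lysyl oxidase that cross-links type IV collagen, averaged 56.5 ± 0.595 CPM in libraries labelled GADD45G and 11.2 ± 1.26 CPM in GFP (SD, n = 3 each; log2 fold change 2.33, edgeR adjusted p = 7.59e-10). Loxl1, a cross-linker of elastin and collagen, averaged 62.4 ± 3.902 CPM in libraries labelled GADD45G and 29.8 ± 1.14 CPM in GFP (SD, n = 3 each; log2 fold change 1.07, edgeR adjusted p = 4.95e-08). Sec24d, a coat protein of collagen export, averaged 124 ± 5.61 CPM in libraries labelled GADD45G and 72.7 ± 2.43 CPM in GFP (SD, n = 3 each; log2 fold change 0.77, edgeR adjusted p = 2.84e-07), and Adamts14, a procollagen N-proteinase, averaged 9.51 ± 1.66 CPM in libraries labelled GADD45G and 0.7697 ± 0.233 CPM in GFP (SD, n = 3 each; log2 fold change 3.61, edgeR adjusted p = 2.98e-07). The list's other procollagen N-proteinase genes, Adamts2 and Adamts3, rose by 4.23 and 1.73 on the log2 scale. The lower genes were Pcolce and Pcolce2, enhancers of C-propeptide removal, and Tll1, a C-proteinase. Lox, the lysyl oxidase of fibrillar collagen, rose by 3.59 with all libraries and by 1.90 without GADD45G library 3.

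Of 8 collagen receptor and uptake genes tested 4 were higher, 1 was lower and 3 did not pass (3 higher and 2 lower without GADD45G library 3). For this list and those that follow here, 30.6% of all genes tested were higher and 29.7% lower (32.5 and 32.1% without that library). Itga1, an integrin subunit that binds type IV collagen, averaged 205 ± 12.7 CPM in libraries labelled GADD45G and 39.2 ± 1.05 CPM in GFP (SD, n = 3 each; log2 fold change 2.38, edgeR adjusted p = 8.64e-11). Ddr1, a collagen-activated kinase receptor, averaged 1398 ± 85.97 CPM in libraries labelled GADD45G and 678 ± 1.75 CPM in GFP (SD, n = 3 each; log2 fold change 1.04, edgeR adjusted p = 9.87e-09), and Ddr2 rose by 0.39 on the log2 scale. Itgb1, the shared beta subunit of these integrins, averaged 625 ± 17.3 CPM in libraries labelled GADD45G and 1039.9 ± 14.6 CPM in GFP (SD, n = 3 each; log2 fold change -0.73, edgeR adjusted p = 3.49e-08). Mrc2, an uptake receptor, was called higher at 2.55 and stood at 0.03 without GADD45G library 3. Among 6 tested collagen-cleaving genes 1 rose and 3 fell. Ctsb, a lysosomal cathepsin, averaged 2812 ± 152 CPM in libraries labelled GADD45G and 1432 ± 21.96 CPM in GFP (SD, n = 3 each; log2 fold change 0.97, edgeR adjusted p = 8.71e-09), and the membrane metalloproteinases Mmp14, Mmp15 and Mmp16 fell by 0.16, 0.31 and 0.66 on the log2 scale. Of 5 tested leucine-rich proteoglycan genes, which bind fibril surfaces, 2 rose and 2 fell. Ogn averaged 740.1 ± 43.9 CPM in libraries labelled GADD45G and 190.3 ± 6.41 CPM in GFP (SD, n = 3 each; log2 fold change 1.96, edgeR adjusted p = 1.63e-10), and Fmod averaged 136 ± 6.86 CPM in libraries labelled GADD45G and 339 ± 6.02 CPM in GFP (SD, n = 3 each; log2 fold change -1.32, edgeR adjusted p = 1.87e-09). Bgn rose by 1.40 with all libraries and by 0.67 without GADD45G library 3, and Prelp fell by 0.19.

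In the knockdown experiment few of these genes passed, where 5.15% of all genes tested were higher and 5.27% lower. Of the 19 modification and folding genes 3 were higher and 16 did not pass. P4ha1 averaged 432 ± 32.3 CPM in libraries labelled shGADD45G and 283 ± 8.36 CPM in shLuc (SD, n = 3 each; log2 fold change 0.61, edgeR adjusted p = 0.0017). Plod2, a lysyl hydroxylase of telopeptides, averaged 165 ± 11.8 CPM in libraries labelled shGADD45G and 124 ± 1.37 CPM in shLuc (SD, n = 3 each; log2 fold change 0.42, edgeR adjusted p = 0.00924), and Serpinh1, a collagen chaperone, averaged 1006 ± 179 CPM in libraries labelled shGADD45G and 720.4 ± 14.4 CPM in shLuc (SD, n = 3 each; log2 fold change 0.48, edgeR adjusted p = 0.0299). Crtap did not pass (edgeR adjusted p = 0.0522). In the processing list 2 of 16 were higher, Loxl1 by 0.61 and Pcolce by 0.72. Among the receptors Ddr2 rose by 0.65 and Lair1, an inhibitory receptor of immune cells, fell by 1.28, beside the lower microglial markers given above. The 6 tested collagen-cleaving genes did not pass with edgeR, although Ctsb, Mmp14 and Mmp15 had unadjusted p-values of 0.00828, 0.0118 and 0.0112. Bgn averaged 92.5 ± 3.62 CPM in libraries labelled shGADD45G and 43.2 ± 1.49 CPM in shLuc (SD, n = 3 each; log2 fold change 1.10, edgeR adjusted p = 0.000188), and Ogn averaged 1292 ± 444 CPM in libraries labelled shGADD45G and 646 ± 16.3 CPM in shLuc (SD, n = 3 each; log2 fold change 1.00, edgeR adjusted p = 0.00959). The other 3 proteoglycan genes tested did not pass.

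The 12 members not tested in the overexpression experiment had at most 14 counts in any library other than GADD45G library 3. Besides Col6a3, Col6a4, Col6a6 and Col15a1 they were Col9a1, Col9a2, Col10a1, Col13a1, Col17a1, Col19a1, Col24a1 and Col28a1. Col13a1 had 12 counts and Col28a1 41 in that library, with at most 1 in the other GADD45G libraries. In the knockdown experiment 11 listed members were not tested, with at most 20 counts in a library, and Col25a1 joined this set with 1 count in each group. The authors' deposited table calls 8 members higher and 14 lower in the overexpression experiment, and 7 higher and 2 lower in the knockdown. The 22 and 8 of those calls that are also called here had the same direction. The share of all genes that the authors called is not given here, so these counts are not read as particular to collagens. Col1a1, Col3a1 and Col6a2, called higher here in the overexpression experiment, are not called in the authors' table. In the authors' deposited table for the knockdown Col4a1 passed as well, at an adjusted p of 0.0418.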

How the data were processed

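RNA-seq of 12 astrocyte libraries was deposited as 2 tables, 1 for each experiment. Per the submitters' processing notes, the authors used STAR 2.5, HTSeq 0.6.1 and DESeq2 with mm10; the sources used here give no strand setting, filter or annotation release. The deposited tables hold raw read counts per gene, the authors' normalized signal (the same counts over a factor for each library), FPKM by their gene length, and the authors' log2 fold changes, p-values and adjusted p-values.

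Counts were scaled by TMM, filtered with filterByExpr and tested by edgeR 4.0.16 (quasi-likelihood F test, Benjamini-Hochberg over all genes tested, under 0.05 called) in R 4.3.3, separately in each experiment and jointly for the difference. The precision of a value is limited by its counts, which are given where they are low. FPKM served for levels between genes and for chain ratios (exact permutation test, SciPy 1.17.1, Python 3.11.15). The fits were tested on simulated data. The members and all gene lists were chosen with earlier results of these data known. Named members average at least 5 CPM in 1 of the 4 groups or are called with at least a 2-fold change; of each other list up to 4 tested genes with the smallest p and at least 1 CPM are named in each experiment. Others were named after their values were seen. Promoters were found for 35 of the 44 members. Alternatives were RLE and upper-quartile scaling, DESeq2 1.42.0, limma-voom 3.58.1, no or a stricter filter, a replicate block, 1 fit of all libraries and leaving out each library. The summed level of the oligodendrocyte lineage list is not reported here.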

Additional observations from a re-analysis of the deposited data

How the results depend on the processing

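The members called higher in libraries labelled GADD45G against GFP numbered 6 to 13 when each library was left out in turn, and 8 (limma-voom) to 12 (no count filter, or all 12 libraries in 1 fit) under the other settings. The lower ones numbered 14 to 15 and 12 to 15. Over the libraries left out, 24.9 to 32.5% of all genes tested were higher and 25.9 to 32.1% lower. Under the other settings the genes called in all numbered 8165 (all 12 libraries in 1 fit) to 9429 (limma-voom), against 9300 in the main fit. Of the 25 calls, Col1a1 was lost with DESeq2, limma-voom and without any single GFP library, Col3a1 with the same settings and without GADD45G library 3, and Col6a2 with these and with no count filter, RLE or upper-quartile scaling. Col5a1 and Col5a2 were lost in the fit of all 12 libraries. In libraries labelled shGADD45G against shLuc the higher members numbered 5 to 8 and the lower ones 1 to 2 when each library was left out, and 64 of 64 values of the 8 called members under the other settings stayed called in their direction. Among all genes the share called there ran from 3.53% (without shLuc library 1) to 18.1% (without the library labelled shGADD45G 1), against 10.4% with all libraries, and the cause was not tested. In the difference of the contrasts Col11a2, Col16a1, Col20a1 and Col27a1 each lost their call without some libraries.

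The labels do not say whether libraries of the same number belong together. The deviations of same-numbered libraries correlated at -0.055, -0.019 and 0.0023 in the overexpression experiment and at -0.0032, 0.19 and 0.15 in the knockdown. With 3 libraries a group these values cannot settle whether the libraries were paired. With the number as a replicate block 11 members were higher and 14 lower in libraries labelled GADD45G and 6 and 2 in libraries labelled shGADD45G, as without it, and the difference gave 6 and 10 in place of 7 and 12. Of all genes, 8948, 1570 and 6238 were called with the block in these comparisons, against 9300, 1554 and 6513 without it. The block turned Col11a2 in the knockdown to -0.048, as limma-voom did (-0.055), and upper-quartile scaling turned Col4a6 there to -0.0049, neither of them called.

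Some log2 values changed sign when 1 library was left out. Over the libraries left out, Col3a1 ran from -0.51 to 6.55 and Col4a3 from -0.21 to 0.38 for GADD45G against GFP, each lowest and negative without GADD45G library 3. For shGADD45G against shLuc the ranges were Col11a2 from -0.52 to 0.32, Col20a1 from -0.017 to 0.52, Col4a5 from -0.002 to 0.26, Col4a6 from -0.14 to 0.14, Col5a1 from -0.15 to 0.21, Col6a1 from -0.083 to 0.37, Col6a2 from -0.074 to 0.28, Col16a1 from -0.18 to 0.069, Col8a2 from -0.22 to 0.026 and Col9a3 from -0.72 to 0.075, none of them called with all libraries. For the difference of the contrasts they were Col3a1 from -1.65 to 5.39, Col4a3 from -0.076 to 0.49, Col6a2 from -0.064 to 1.82 and Col4a2 from -0.42 to 0.20. The Col6a1 to Col6a2 ratio in the knockdown, 0.01 with all libraries, ran from -0.23 to 0.28. Col1a1 and Col3a1 had counts under about 100 a library outside GADD45G library 3, which limits what could be told apart for these genes. Others in this list, such as Col4a5, Col4a6 and Col5a1, had far higher counts. The cause was not tested for any of these changes.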
